A study of Mus musculus with 12 samples.

Results

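The genes described here are 45 genes of neurons and synapses, chosen by name for neuronal cytoskeleton, synaptic vesicles, receptors, granins and cerebellar neurons. They were chosen with earlier results of these data known, so their shares beside those of all genes are not an unbiased comparison. A gene was found by its symbol in the annotation of the array, and where it had several probe sets the one with the highest mean over the 12 arrays gave its value. Of the 45 genes, 43 had a probe set of their own, out of 22180 genes named on the array, and 42 of these were bright enough to be tested, out of 18652. Grin1 and Pcp2, a glutamate receptor subunit and a Purkinje cell gene, were not analysed here, since no probe set was listed for the first and the only one listed for the second names another gene too. Gabra6, the GABA receptor subunit of mature cerebellar granule neurons, was the 1 member left untested: it lay under the 25th percentile of every array, at 4.81 to 5.75.

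The cells, called MP, are a mouse model of Group 3 medulloblastoma driven by MYC, a malignant tumour of the cerebellum. Tumours came from the cerebella of NSG mice, which lack a working immune system, and their cells were dissociated and plated in Neurocult medium with a proliferation supplement. Cultures of 3 tumours, named MP525, MP567 and MP570, received 25 nM LBH589, which is the histone deacetylase (HDAC) inhibitor panobinostat, or 0.00025% DMSO, and total RNA was taken after 6 h or 12 h, to learn how HDAC inhibition acts on these cells. That gave 4 groups of 3 arrays: DMSO at 6 h, LBH589 at 6 h, DMSO at 12 h and LBH589 at 12 h, with 1 array of each tumour in every group. All 4 groups therefore share the MP tumour background, the host strain and the culture medium, and how much DMSO the LBH589 cultures held is not stated in the labels. As published background, MP cells are cerebellar progenitors given Myc and a dominant-negative p53. The 3 tumours are the replicates, and whether the 4 cultures of a tumour came from 1 dissociation is not stated.

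Neurons have a cytoskeleton of microtubules and neurofilaments and pass messages on at synapses. There vesicles fuse with the membrane through SNARE proteins once synaptotagmins sense calcium. Larger dense-core vesicles, built with granins, release peptides. Many of these genes are silenced outside neurons by the repressor REST, which recruits HDACs to a DNA element called RE1. HDAC inhibitors are known for raising some neuronal genes in many cell types. Cells of Group 3 medulloblastoma resemble early cerebellar progenitors and often carry some neuronal transcripts.

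The labelled cell type was read from marker genes. All 5 neuron markers on a fixed list (Rbfox3, Snap25, Syt1, Dcx and Map2, all members here) lay above the array median on all 12 arrays, as did the progenitor genes Nes, Prom1, Msi1, Vim and Fabp7, and 35 of the 43 members did so too. Of 7 measured genes typical of Group 3 medulloblastoma and photoreceptors, Myc and Npr3 lay above the median on all 12 arrays and the other 5 did not. Their summed level (log2 of the sum of linear values) was 11.41 to 11.98 in DMSO at 6 h and 10.63 to 10.88 in LBH589, and 11.34 to 11.94 against 10.63 to 10.97 at 12 h, with 1 of the 7 called lower at each time. The progenitor list summed to 12.91 to 13.41 in DMSO and 12.91 to 13.37 in LBH589 at 6 h, with 1 gene of 7 called higher and 1 lower, and to 12.93 to 13.36 and 13.16 to 13.59 at 12 h, with 2 higher and 2 lower. For astrocytes, whose Slc1a3, Sox9 and Gja1 lay above the median on all arrays, 1 of 8 markers was called higher at each time, and summed levels were 11.16 to 11.62 in DMSO and 11.16 to 11.35 in LBH589 at 6 h, and 11.14 to 11.56 and 11.05 to 11.53 at 12 h. Oligodendrocyte markers, 1 of 7 called higher at each time, summed to 10.60 to 11.60 and 10.86 to 11.71 at 6 h, and to 10.69 to 11.59 and 11.01 to 11.68 at 12 h. Endothelial markers had 1 of 7 called higher at each time, microglial ones 0 of 8 at 6 h and 1 at 12 h, granule neuron precursor genes 1 of 6 higher at each time, and fibroblast markers 0 of 7. Markers of these types also lay above the median on all 12 arrays. For oligodendrocytes these were Mbp, Mog, Cnp, Cldn11 and Mobp, and for fibroblasts and pericytes Col1a1, Col1a2, Col3a1, Pdgfrb and Rgs5. For endothelium they were Pecam1, Cdh5, Kdr and Flt1, for microglia Cx3cr1 and Cd68, and for granule neuron precursors Atoh1, Zic1 and Ccnd2. A level above the median thus does not single out 1 cell type. The marker calls above come from the fit without the tumour as a block. In the fit with that block, described below, astrocyte and microglial markers went both ways. Sox9 was higher and Gja1 and Slc1a3 were lower at both times. At 12 h Gfap and Cd68 were also higher, and Slc1a2, Itgam and Ptprc lower. The part of any of the listed cell types in the results was not tested. The samples are bulk RNA, in which fewer cells of a type and less RNA per cell cannot be told apart.

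Promoter sequence was at hand for 31 of the 45 genes, as 42 windows of 300 bases (250 before to 50 after a RefSeq start site, mouse build GRCm38.p6), and 5 short motifs were searched on both strands. The windows below belong to some of the members whose levels differed with the drug (Chga, Stx1a and Sncb higher, Dcx lower). Those of Scg2 and Syn1 are shown because they hold letters of RE1. All are written 5′ to 3′ on the gene's strand, and capitals mark the motif matches: GGGCGG, the GC box, in Chga, Stx1a and Sncb, and once as its reverse complement CCGCCC in Sncb; TATAAA in Dcx; TTCAGCACC and GGACAGC, the left and right parts of RE1, in Scg2, where both stand on the other strand and touch; and TTCAGCACC in Syn1. The Chga stretch is chr12:102554821-102554940 (+), that of Stx1a chr5:135023362-135023481 (+), that of Sncb chr13:54766591-54766715 (-), that of Dcx chrX:143933220-143933339 (-), that of Scg2 chr1:79440022-79440086 (-) and that of Syn1 chrX:20921099-20921158 (-). All but that of Syn1, which starts at -240 from the start site, reach the base before that site or, for Sncb and Scg2, 5 bases into the transcript.
Chga: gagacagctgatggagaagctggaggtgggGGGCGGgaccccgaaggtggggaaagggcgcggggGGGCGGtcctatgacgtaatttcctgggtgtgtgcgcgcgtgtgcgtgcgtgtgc
Stx1a: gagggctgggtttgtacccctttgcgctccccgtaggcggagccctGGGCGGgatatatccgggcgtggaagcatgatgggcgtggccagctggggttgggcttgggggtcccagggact
Sncb: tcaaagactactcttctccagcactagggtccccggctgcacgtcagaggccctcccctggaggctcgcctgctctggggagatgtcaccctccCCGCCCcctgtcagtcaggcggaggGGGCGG
Dcx: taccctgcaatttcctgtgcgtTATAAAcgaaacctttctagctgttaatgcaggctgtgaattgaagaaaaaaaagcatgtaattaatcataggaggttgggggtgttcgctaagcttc
Scg2: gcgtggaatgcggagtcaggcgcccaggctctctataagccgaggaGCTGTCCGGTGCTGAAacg
Syn1: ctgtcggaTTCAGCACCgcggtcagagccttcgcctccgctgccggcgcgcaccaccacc

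Over the members' 42 windows, TTCAGCACC was found in 2 (Scg2 and Syn1), against 0.371% of all 32851 RefSeq windows of this length. GGACAGC was found in 6 (Map2, Scg2, Gad2, Gria2, Pcp2 and Pvalb), against 6.56% of all windows. GGGCGG was found in 18 windows of 17 members, against 35.7%, TATAAA in 7, against 13.6%, and CACGTG, the E-box, in 1 (Grin1), against 7.15%. Of the members higher with the drug at both times, Chga, Stx1a, Sncb and Syt1 held GGGCGG and Eno2 did not. GGGCGG also stood in Map2, Chgb, Cplx1, Syp, Syt11, Ina and Slc17a6, called lower in the blocked fit alone. Slc17a7, called higher in that fit alone, held it too, as did Gad1, Elavl3, Camk2b and L1cam, called in neither fit. The motif was thus found in members of either direction and in members without a call, and a link with direction was not tested. TATAAA stood in the window of Eno2, which is not shown, and in that of Chga outside the stretch shown. Scg2 and Syn1 share the left part of RE1 and differ in their values: Syn1 was not called for the drug at either time, and Scg2 was called higher in the blocked fit alone, as described below. These matches describe the letters in the windows and are no evidence of binding.

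Against DMSO, LBH589 moved single neuronal genes both up and down. By limma, with p-values adjusted over all 18652 genes and a call at an adjusted p under 0.05, 5 of 42 members (11.9%) rose at 6 h and 2 (4.76%) fell, where 8.49% of all genes tested rose and 7.31% fell. At 12 h, 8 members (19.0%) rose and 4 (9.52%) fell, against 9.13% and 9.07% of all genes. Chga, Eno2, Sncb, Stx1a and Syt1 were higher at both times, Calb1, Camk2a and Vgf at 12 h, while Nefh and Syt4 were lower at both times and Dcx and Rbfox3 at 12 h. The members' median log2 difference was -0.01 at 6 h and 0.02 at 12 h, beside -0.02 and 0.01 over all genes, so the members had no common direction. Their median difference without its sign was 0.36 at 6 h and 0.40 at 12 h, beside 0.18 and 0.19 over all genes. The groups did not overlap for 8 of the 42 members at 6 h, where 32.9% of all genes tested did not, and for 14 of the 42 at 12 h, where 32.0% did not, so that this count lay below the share of all genes at 6 h and close to it at 12 h. The count sets arrays of different tumours against each other, so it also depends on gaps between tumours. Those gaps were larger in the members than over all genes, as given below. It therefore does not measure how strongly the members responded to the drug. Of the 12 members called at either time, 11 differed in 1 direction in all 3 tumours at both times, and Camk2a did so only at 12 h. The calls came from these same arrays, so this agreement follows in part from the call and is no separate evidence.

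The tumours differed in the level of most members, and a fit with the tumour as a block, which compares cultures within a tumour, called more of them. With the block, 12 members (28.6%) rose and 11 (26.2%) fell at 6 h, against 18.0% and 16% of all genes, and 13 (31.0%) rose and 14 (33.3%) fell at 12 h, against 18.6% and 18.5%. The 16 members called at 6 h only with the block, and the 15 at 12 h, are named as such below. With the tumour as a random block 8 of the 16 and 7 of the 15 were called. Their adjusted p over the alternatives without a block ran from 0.0249 to 0.997 at 6 h and from 0.0172 to 0.994 at 12 h, with calls only for Ncam1 without MP567 (0.0249 and 0.0172), Calb1 at 6 h without the LBH589 12 h array of MP570 (0.0265) and Vamp2 at 12 h without the DMSO 12 h array of MP570 (0.0457). In neither fit and at neither time were 13 members called: Nefl, L1cam, Syn1, Grin2b, Gria1, Gria2, Slc32a1, Gad1, Gad2, Camk2b, Pvalb, Uchl1 and Elavl3.

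The counts of the fit without the block rested in part on single arrays. Arrays and tumours were left out of that fit alone, here and for the single members below. How calls with the block depend on single arrays was not tested. The 5 rises at 6 h became 3 without the DMSO 6 h or the DMSO 12 h array of MP525 or the DMSO 12 h array of MP567 or MP570, 2 without the LBH589 6 h array of MP525 or the DMSO 6 h array of MP567, and 1 without the LBH589 6 h array of MP570. Without tumour MP525 the count was 1 and without MP570 it was 2. Of the 2 falls at 6 h, 1 was left without any of the 3 DMSO 6 h arrays or the LBH589 6 h array of MP525 or MP567, 0 without MP525, and 1 without MP567 or MP570. The 8 rises at 12 h became 2 without MP525 and 5 without MP570. The 4 falls at 12 h became 1 without the DMSO 12 h or LBH589 12 h array of MP525, the LBH589 12 h array of MP567 or the DMSO 12 h array of MP570, 0 without MP525 and 1 without MP570.

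**Figure D1:**
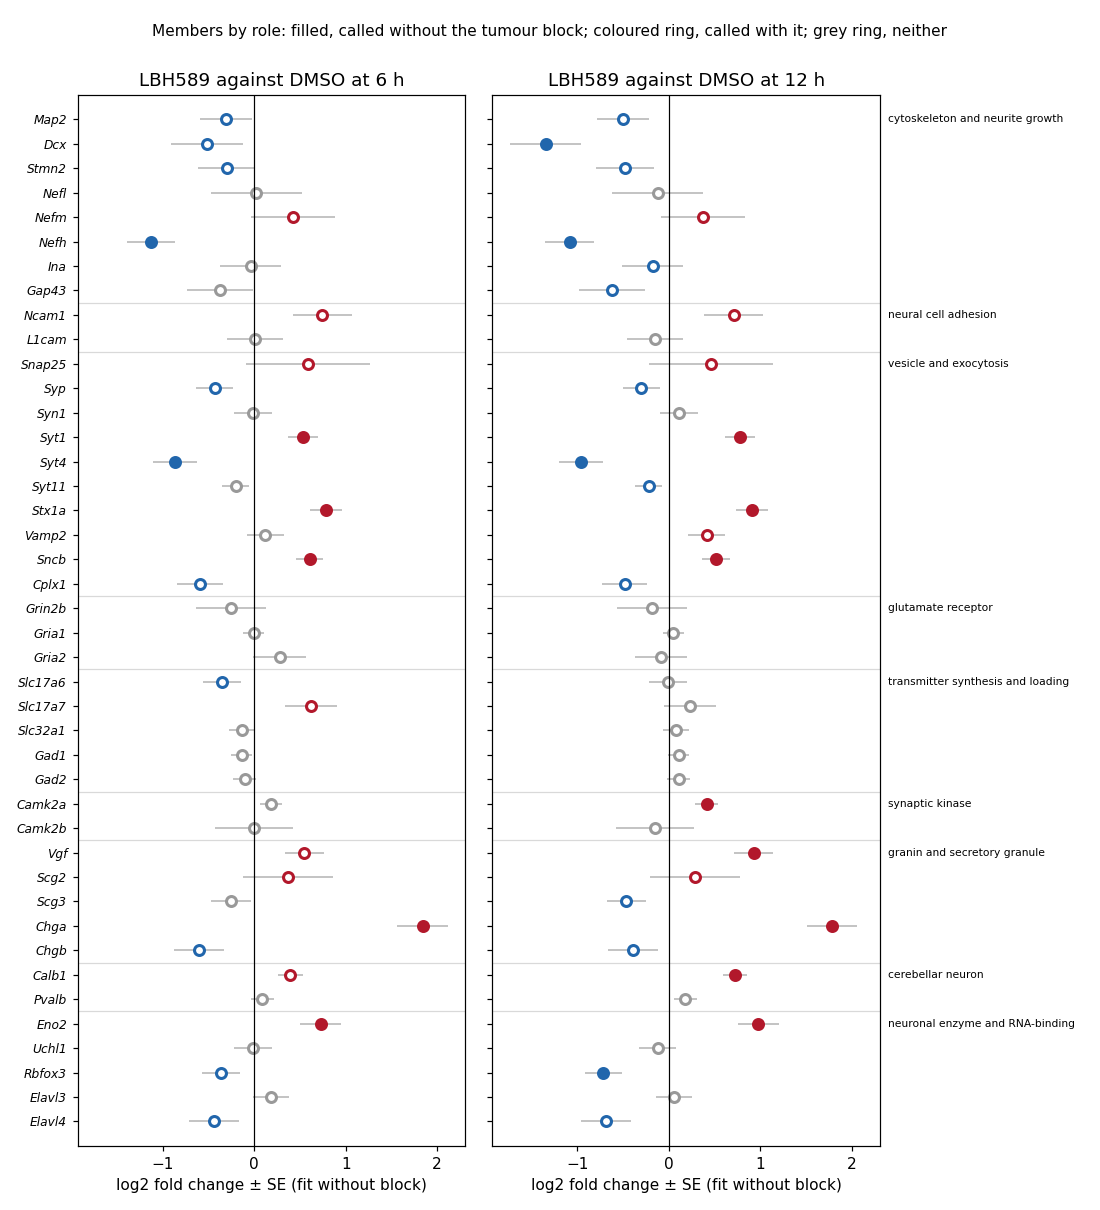
The log2 difference of LBH589 against DMSO at 6 h (left) and 12 h (right) is plotted for the 42 members tested, grouped by role, with the standard error of the fit without the block (n = 3 arrays a group). Filled points, red for higher and blue for lower, are the 7 members called at 6 h and the 12 called at 12 h, coloured rings are members called in the blocked fit alone, and Chga lies farthest to the right at both times, at 1.84 and 1.79.

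Among the 5 granins and granule proteins, Chga and Vgf were higher with the drug while Chgb and Scg3 lay lower. Without the block 1 rose at 6 h and 2 at 12 h, and none of the other members of this role was called. With the block 3 rose and 1 fell at 6 h, and 3 rose and 2 fell at 12 h. Counts by role, here and below, are to be read beside the shares of all genes called. Without the block these were 8.49% higher and 7.31% lower at 6 h, and 9.13% and 9.07% at 12 h. Those of the blocked fit, given above, were larger. No role was tested against all genes, and counts in so few genes do not show a trait of a role. Chga encodes chromogranin A, the acidic protein that packs the dense-core granule. In the order MP525, MP567 and MP570, which all values below follow, its log2 level was 9.96, 8.91 and 9.89 in DMSO at 6 h and 11.39, 11.24 and 11.66 in LBH589. At 12 h it was 10.18, 9.44 and 9.93 in DMSO and 11.65, 11.36 and 11.90 in LBH589. At both times all LBH589 arrays lay above all DMSO arrays. The level was 3.58-fold higher at 6 h, a log2 difference of 1.84 ± 0.28 (SE, n = 3 a group, adjusted p = 0.00124), and 3.45-fold higher at 12 h, a difference of 1.79 ± 0.28 (adjusted p = 0.00119). Chga alone among the called members stayed called without each single array and without each tumour, with an adjusted p of up to 0.0389 at 6 h and 0.0438 at 12 h over all alternatives.

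Vgf, which encodes a neuropeptide precursor induced by growth factors, lay at 8.98, 8.83 and 9.43 in DMSO at 6 h and at 9.30, 9.67 and 9.92 in LBH589, where the groups overlapped. At 12 h it lay at 8.74, 8.54 and 9.01 in DMSO and at 9.38, 9.87 and 9.83 in LBH589, with no overlap. The 12 h difference was 1.90-fold, or 0.93 ± 0.21 in log2 (adjusted p = 0.0106), and the call ended without MP567 (0.113). The 6 h difference of 0.55 ± 0.21 was not called (adjusted p = 0.109) except with the block (0.00462). Chgb, the sister protein chromogranin B, differed by -0.60 ± 0.27 at 6 h and -0.39 ± 0.27 at 12 h, called only with the block (0.000244 and 0.00525). Its values at 6 h were 8.54, 8.38 and 9.07 in DMSO against 7.97, 7.71 and 8.51, so each tumour lay lower with the drug although the groups overlapped. Scg3, which ties granins to cholesterol-rich membrane, differed by -0.26 at 6 h and -0.46 at 12 h, the second called with the block (0.00208). Scg2, a granin cut into secretoneurin, differed by 0.37 at 6 h and 0.29 at 12 h, both called with the block only (0.0128 and 0.044), and its spread between tumours, described further down, was larger than either.

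Of the 10 vesicle and exocytosis genes 3 rose and 1 fell at each time, and with the block 4 rose and 3 fell at 6 h, and 5 rose and 4 fell at 12 h. Syntaxin 1A, encoded by Stx1a, is the SNARE protein of the plasma membrane. Its level was 8.88, 8.79 and 9.31 in DMSO at 6 h and 9.76, 9.48 and 10.07 in LBH589. At 12 h the values were 8.94, 8.73 and 9.02 against 9.72, 9.76 and 9.93. Drug and solvent arrays did not overlap at either time. The log2 difference was 0.78 ± 0.18 at 6 h (1.72-fold, adjusted p = 0.011) and 0.91 ± 0.18 at 12 h (1.87-fold, adjusted p = 0.0043). The 6 h call ended without the LBH589 6 h array of MP570 (0.0507) and both calls ended without MP525 (0.16 and 0.0628).

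Synaptotagmin 1, the calcium sensor of fast release, and synaptotagmin 4, a relative that binds calcium poorly, went opposite ways. For Syt1 the levels were 8.11, 8.10 and 8.43 in DMSO at 6 h and 8.70, 8.55 and 9.00 in LBH589, then 8.39, 8.47 and 8.56 in DMSO at 12 h and 9.51, 8.95 and 9.30 in LBH589. The Syt1 groups were apart at both times, by 0.54 ± 0.17 at 6 h (1.45-fold, adjusted p = 0.0472) and by 0.78 ± 0.17 at 12 h (1.72-fold, adjusted p = 0.00709). For Syt4 they were 9.98, 10.19 and 10.48 in DMSO at 6 h and 9.26, 8.96 and 9.83 in LBH589, and 10.17, 10.19 and 10.36 against 9.13, 8.97 and 9.74 at 12 h. All Syt4 arrays with the drug lay below all with the solvent. The fall was 1.82-fold at 6 h, -0.87 ± 0.24 (adjusted p = 0.0304), and 1.95-fold at 12 h, -0.96 ± 0.24 (adjusted p = 0.0162). With the mean of its 3 probe sets in place of the brightest, the Syt4 difference at 6 h was -0.54 (adjusted p = 0.0392).

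Several of these calls ended without single arrays. The 6 h call of Syt1 ended without any DMSO array but the DMSO 6 h array of MP570, without the LBH589 12 h array of MP570 or the LBH589 6 h one of MP525 or MP570, and without any of the tumours (adjusted p 0.0605 to 0.229), and also when arrays were centred on their medians (0.0647), after quantile normalization (0.0614), with no filter on dim genes (0.0558) or in a fit of the 2 groups compared alone (0.0723). Its 12 h call ended without MP525 (0.126) or MP570 (0.0573). The 6 h call of Syt4 ended without the LBH589 6 h array of MP525 (0.0921) or MP567 (0.105), without the DMSO 6 h array of MP567 (0.0692) or MP570 (0.106), without MP525 (0.174) or MP567 (0.161) and in a fit of the 2 groups alone (0.0601). At 12 h the Syt4 call ended without the LBH589 12 h array of MP525 (0.0548) or MP567 (0.0597), without the DMSO 12 h array of MP570 (0.057), and without MP525 (0.146) or MP567 (0.0899).

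Sncb, which encodes beta-synuclein of the nerve terminal, lay at 9.67, 9.49 and 9.64 in DMSO at 6 h and at 10.26, 10.07 and 10.28 in LBH589. At 12 h its levels were 9.91, 9.41 and 9.91 against 10.44, 10.12 and 10.22. Again no LBH589 array lay among the DMSO arrays of its time. The rise was 0.60 ± 0.15 at 6 h (1.52-fold, adjusted p = 0.0195) and 0.52 ± 0.15 at 12 h (1.43-fold, adjusted p = 0.0345). The 6 h call of Sncb ended without the LBH589 6 h array of MP525 (0.0663) or MP570 (0.0732), the DMSO 6 h array of MP567 (0.0683), and without MP525 (0.128) or MP570 (0.184). Its 12 h call ended without the LBH589 12 h array of MP525 (0.111) or MP570 (0.0715), the DMSO 12 h array of MP567 (0.117), each tumour (0.069 to 0.154) and in a fit of the 2 groups alone (0.102).

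Other vesicle genes were called only within tumours. Snap25, the SNARE partner of syntaxin, was 11.94, 10.10 and 12.27 in DMSO at 6 h and 12.45, 11.06 and 12.56 in LBH589, and 11.99, 10.28 and 12.36 against 12.43, 11.07 and 12.52 at 12 h. Every tumour was higher with the drug, and the groups overlapped, with MP567 far below the others. The Snap25 difference was 0.58 ± 0.68 at 6 h and 0.47 ± 0.68 at 12 h without the block (adjusted p = 0.654 and 0.711), and the same differences had standard errors of 0.12 with it (0.00139 and 0.00593). Vamp2, the SNARE protein of the vesicle, differed by 0.12 at 6 h and by 0.41 at 12 h, the second called with the block (0.027). Syp, the vesicle membrane protein synaptophysin, differed by -0.43 and -0.30 (0.00281 and 0.0244 with the block). Cplx1, whose product complexin clamps the SNARE complex, differed by -0.59 and -0.48 (0.000916 and 0.0036 with the block). Syt11, a synaptotagmin that does not bind calcium, differed by -0.20 and -0.22, the second called with the block (0.0325). Syn1, the vesicle tether synapsin I, differed by -0.01 ± 0.21 at 6 h and 0.11 ± 0.21 at 12 h and was called in neither fit (0.978 and 0.782 without the block, 0.923 and 0.336 with it). Stx1a and Snap25 thus lay higher with the drug in every tumour at both times, and Syp, Cplx1, Syt4 and Syt11 lay lower in every tumour.

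**Figure D2:**
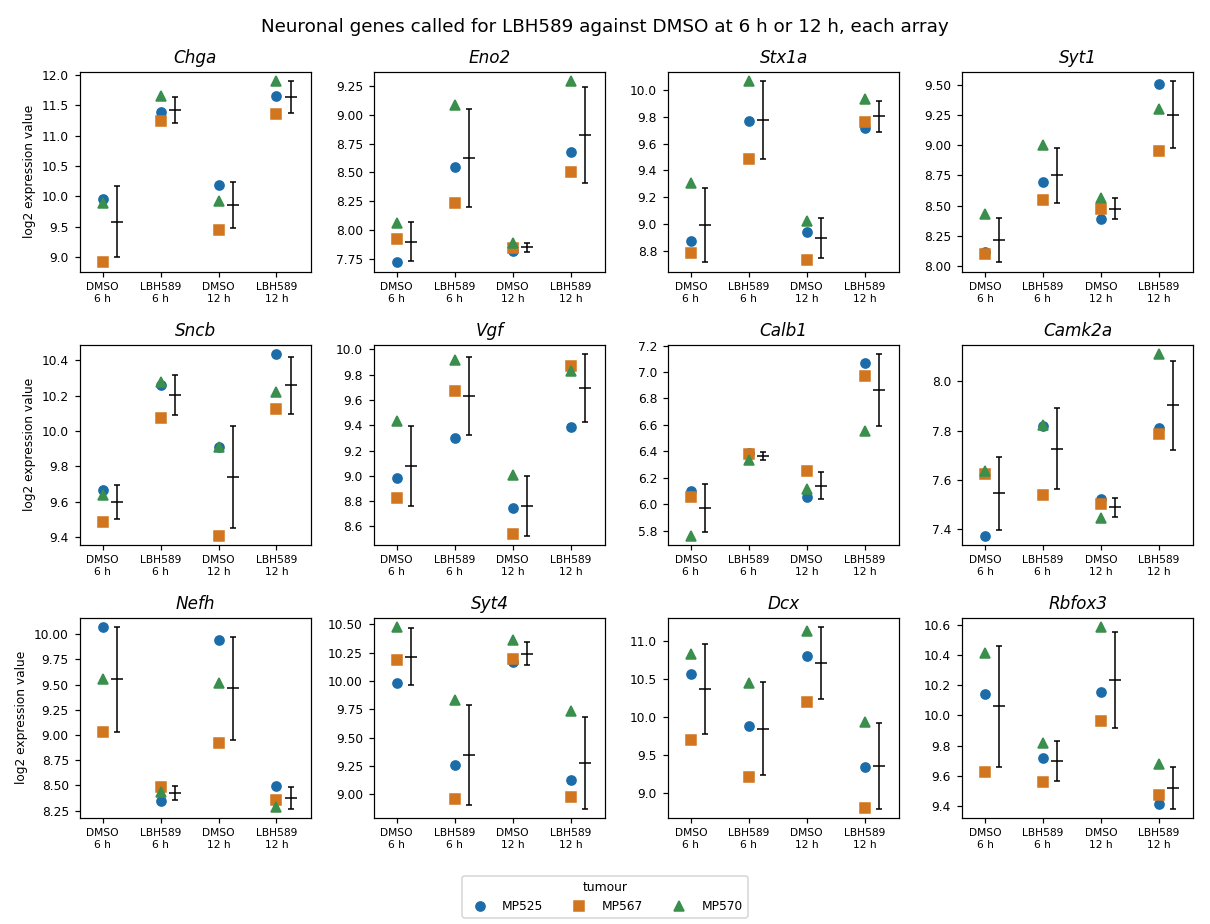
Log2 expression values of the 12 members called for LBH589 against DMSO at 6 h or 12 h are plotted for each of the 12 arrays, by group on the horizontal axis and with 1 marker a tumour; the bars beside the points are the mean ± SD of the 3 tumours, and each panel has its own scale. The upper 8 panels hold the members that rose and the lower 4 those that fell, and the 3 Nefh arrays with LBH589 at 6 h lie within 8.34 to 8.49 while those with DMSO lie between 9.03 and 10.07.

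In the neuronal cytoskeleton most members lay lower with LBH589. Of 8 genes, none rose, 1 fell at 6 h and 2 at 12 h, and with the block 1 rose and 4 fell at 6 h and 1 rose and 6 fell at 12 h. The median log2 difference of the 8 was -0.30 at 6 h and -0.49 at 12 h. Nefh encodes the heavy neurofilament chain, which is added late in axon maturation. Its level was 10.07, 9.03 and 9.56 in DMSO at 6 h and 8.34, 8.49 and 8.44 in LBH589, and 9.94, 8.92 and 9.52 against 8.49, 8.35 and 8.29 at 12 h. The drug arrays lay close together, below every solvent array. The fall was 2.19-fold at 6 h, -1.13 ± 0.27 (adjusted p = 0.0144), and 2.12-fold at 12 h, -1.08 ± 0.27 (adjusted p = 0.015). The Nefh call at 6 h ended without the DMSO 6 h array of MP525 (0.0531), without MP525 (0.105) and without MP570 (0.179). At 12 h it ended without the DMSO 12 h array of MP525 (0.0586), the LBH589 12 h array of MP570 (0.0513), MP525 (0.0669) or MP570 (0.196).

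Dcx, for doublecortin, the microtubule protein of migrating young neurons, lay at 10.57, 9.70 and 10.83 in DMSO at 6 h and at 9.89, 9.22 and 10.44 in LBH589, with overlap. At 12 h it lay at 10.80, 10.20 and 11.13 in DMSO and at 9.35, 8.81 and 9.93 in LBH589, with none. The 12 h fall was 2.54-fold, -1.35 ± 0.39 (adjusted p = 0.033), and the 6 h difference was -0.52 ± 0.39 (adjusted p = 0.448, and 0.000472 with the block). The 12 h call ended without the DMSO 12 h array of MP525 (0.0866) or MP570 (0.116), without the LBH589 12 h array of MP525 (0.0779) or MP567 (0.115), and without MP525 (0.233) or MP570 (0.0762). Map2, the dendritic microtubule protein, differed by -0.31 and -0.50, and Stmn2, the growth cone protein that destabilises microtubules, by -0.30 and -0.48, all called only with the block (0.00486 and 0.000122 for Map2, 0.0272 and 0.00137 for Stmn2). Gap43, the growth cone protein of regrowing axons, differed by -0.37 at 6 h and -0.62 at 12 h, the second called with the block (0.00762). Ina, for the intermediate filament internexin, differed by -0.04 and -0.18 (0.0161 with the block at 12 h).

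Neurofilament chains did not move together. Nefm, the medium chain, differed by 0.42 at 6 h and 0.37 at 12 h, each called higher only with the block (0.00603 and 0.0116), while Nefl, the light chain, differed by 0.02 ± 0.50 and -0.12 ± 0.50 and was called in neither fit (adjusted p of 0.989 and 0.909 without the block, 0.92 and 0.437 with it). Of the 2 adhesion molecules of neural cells, Ncam1 lay at 10.57, 9.61 and 10.71 in DMSO at 6 h and at 11.15, 10.61 and 11.37 in LBH589, and at 10.63, 9.99 and 10.85 against 11.34, 10.79 and 11.47 at 12 h. Each tumour was higher with the drug, and MP567 with the drug reached only the solvent level of the other tumours. The Ncam1 difference of 0.74 ± 0.32 at 6 h and 0.71 ± 0.32 at 12 h was called with the block (2.06e-05 and 2.64e-05) and not without it (0.152 and 0.158). L1cam, which guides axon growth, differed by 0.01 ± 0.31 and -0.15 ± 0.31 and was called in neither fit.

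Receptor, transmitter and kinase genes were mostly not called. None of the 3 glutamate receptor subunits was called in either fit: Grin2b, of NMDA receptors, differed by -0.26 ± 0.38 and -0.18 ± 0.38, Gria1, of AMPA receptors, by -0.01 ± 0.11 and 0.05 ± 0.11, and Gria2, which sets calcium permeability of AMPA receptors, by 0.28 ± 0.29 and -0.09 ± 0.29. At an unadjusted p under 0.05, limma without the block also gave 0 of the 3 at each time, where 28.2% of all genes reached that p at 6 h and 30.7% at 12 h. Of the 5 genes that make or load transmitters, 0 were called without the block, also at an unadjusted p under 0.05. Slc17a7, the vesicular glutamate transporter of granule neurons, was 9.09, 8.69 and 9.76 in DMSO at 6 h and 9.50, 9.78 and 10.13 in LBH589, a difference of 0.62 ± 0.29 that was called with the block (0.00357), while the 12 h difference of 0.23 was called in neither fit. Slc17a6, its relative of other glutamate neurons, differed by -0.35 at 6 h (0.0408 with the block) and -0.01 at 12 h. The GABA genes lay within 0.14 of 0 at both times: Gad1 and Gad2, which make GABA, differed by -0.14 and -0.11 at 6 h and by 0.11 each at 12 h, and Slc32a1, the vesicular GABA transporter, by -0.13 and 0.08.

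Camk2a, the alpha chain of a synaptic calcium-dependent kinase, lay at 7.37, 7.62 and 7.64 in DMSO at 6 h and at 7.82, 7.54 and 7.82 in LBH589, with MP567 lower in LBH589. At 12 h it lay at 7.52, 7.50 and 7.44 in DMSO and at 7.81, 7.78 and 8.11 in LBH589, with no overlap. The rise at 12 h was 1.33-fold, 0.41 ± 0.12 (adjusted p = 0.0357), and the 6 h difference was 0.18 ± 0.12 (adjusted p = 0.389). The call ended without any DMSO 12 h array (0.0728 to 0.0995), without the LBH589 12 h array of MP570 (0.125), without each tumour (0.0742 to 0.274), with arrays centred on their medians (0.0519), after quantile normalization (0.0657) and in a fit of the 2 groups alone (0.0716). Camk2b, the beta chain, was called in neither fit for LBH589 against DMSO, at -0.01 ± 0.43 and -0.15 ± 0.43, and its tumours went different ways, as given below.

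Calb1 stood out among the cerebellar neuron genes. It encodes calbindin, the calcium buffer of Purkinje cells. Its levels were 6.10, 6.05 and 5.76 in DMSO at 6 h and 6.39, 6.38 and 6.33 in LBH589, and 6.06, 6.25 and 6.12 against 7.07, 6.97 and 6.56 at 12 h. Groups were apart at both times, and MP570 with the drug stayed lower than the other tumours at 12 h. The difference of 0.39 ± 0.13 at 6 h was called only with the block (0.0172, and 0.0698 without it), and that of 0.72 ± 0.13 at 12 h was a 1.65-fold rise (adjusted p = 0.00342), a call that ended without MP525 (0.0813). Calb1 lay above the array median on 0 of the 12 arrays and was not tested with a filter at the 50th percentile. Pvalb, for parvalbumin of Purkinje cells and interneurons, differed by 0.09 ± 0.13 and 0.18 ± 0.13 and was called in neither fit.

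Of the 5 neuronal enzymes and RNA-binding proteins, 1 rose at 6 h, and 1 rose and 1 fell at 12 h; with the block 1 rose and 2 fell at each time. Eno2, the neuron-specific enolase of glycolysis, was 7.72, 7.92 and 8.06 in DMSO at 6 h and 8.55, 8.24 and 9.08 in LBH589, and 7.81, 7.84 and 7.89 against 8.68, 8.50 and 9.30 at 12 h. No arrays of drug and solvent overlapped, and MP570 with the drug was highest at both times. The rise was 0.73 ± 0.23 at 6 h (1.65-fold, adjusted p = 0.0495) and 0.98 ± 0.23 at 12 h (1.97-fold, adjusted p = 0.0111). The 6 h call of Eno2 ended without any single array other than the LBH589 6 h and 12 h arrays of MP567 and the LBH589 12 h array of MP570, without each tumour, under both other scalings of arrays on all genes, with no filter and in a fit of the 2 groups alone (adjusted p 0.0534 to 0.304), and the 12 h call ended without MP525 (0.103).

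Rbfox3, the splicing factor known as NeuN, lay at 10.14, 9.63 and 10.41 in DMSO at 6 h and at 9.72, 9.56 and 9.82 in LBH589, with overlap, and at 10.16, 9.96 and 10.59 against 9.42, 9.47 and 9.68 at 12 h, without. The 12 h fall was 1.64-fold, -0.72 ± 0.21 (adjusted p = 0.0317), and the 6 h difference of -0.36 ± 0.21 was called only with the block (0.0234). The 12 h call of Rbfox3 ended without the DMSO 12 h array of MP525 (0.0617) or MP570 (0.121), without the LBH589 12 h array of MP525 (0.0883) or MP567 (0.0786), without MP525 (0.207) or MP570 (0.125), and with arrays centred on reference genes (0.051). Elavl4, for the neuronal RNA-binding protein HuD, differed by -0.44 and -0.69, called only with the block (0.00369 and 0.000116), although its 12 h groups did not overlap: 8.77, 8.77 and 9.60 in DMSO against 8.35, 8.07 and 8.67. Elavl3, for the related HuC, differed by 0.18 ± 0.20 and 0.06 ± 0.20, and Uchl1, an abundant neuronal deubiquitinating enzyme, by -0.01 ± 0.21 and -0.12 ± 0.21, and neither was called in either fit.

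No member was called for a change with time in the solvent. For 12 h against 6 h in DMSO, limma called 0 of the 42, where 0.0214% of all genes were called, and 0 with the block, where 0.311% were. At an unadjusted p under 0.05 the count was 0 of the 42, against 2.21% of all genes. In LBH589, where time also means longer exposure to the drug, it called 0 of the 42 and 0.0% of all genes, and 2 of the 42 had an unadjusted p under 0.05, against 7.59% of all genes. With the block, 1.99% of all genes and 4 members were called in LBH589: Dcx was 0.49 lower at 12 h than at 6 h (log2 difference -0.49, adjusted p = 0.0207), and Syn1 (0.41, adjusted p = 0.0264), Syt1 (0.51, adjusted p = 0.0484) and Calb1 (0.50, adjusted p = 0.0484) were higher. Without the block the adjusted p of these 4 was 0.808, 0.681, 0.593 and 0.545. Syn1 in LBH589 was 9.59, 9.46 and 10.06 at 6 h and 10.06, 9.88 and 10.39 at 12 h, and its DMSO levels were 9.62, 9.52 and 10.02 at 6 h and 9.82, 9.90 and 10.29 at 12 h, so each tumour was higher at 12 h in both treatments. The drug's effect at 12 h minus that at 6 h was called by limma for 0 members in either fit, where 0.0% of all genes were called without the block and 0.0107% with it. At an unadjusted p under 0.05 without the block the count was 0 of the 42, against 2.63% of all genes. Calls made at 12 h and not at 6 h are thus not shown to differ between the times.

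Between tumours the members differed widely. An F-test of the tumour in a limma fit with the group called 33 of the 42 members (78.6%), against 37.4% of all genes. Of the 33, 27 were highest in MP570, 4 in MP525 (Sncb, Grin2b, Camk2b and Uchl1) and 2 in MP567 (Nefm and Elavl3). Lowest was MP567 for 22 and MP525 for 11 (Stmn2, Nefl, Nefm, Ina, Gap43, Syp, Vamp2, Cplx1, Gria2, Vgf and Elavl3), and MP570 for 0. The highest and lowest tumour was not counted over all genes called between tumours. This order of the tumours is thus not shown to be a trait of the members. The median of the largest gap between tumour means was 0.52 over members tested and 0.22 over all genes, and for 27 of the 42 members that gap was larger than the larger of the drug's 2 differences. That count sets the largest of 3 gaps against the larger of 2 differences, which favours the tumours. It was not made over all genes. The 9 members not called between tumours were Nefh, Syt1, Gria1, Slc32a1, Gad1, Gad2, Camk2a, Calb1 and Pvalb. A tumour here is 1 source of cells, grown in 4 cultures, so a difference between tumours is one between these 3 sources.

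Ina, Snap25, Scg2, Nefl, Nefm, Dcx, Map2 and Ncam1 had the smallest adjusted p of that test (3.24e-08 to 4.25e-06). Snap25 had the widest gap: its mean over 4 arrays was 12.20 ± 0.27 (SD) in MP525, 10.63 ± 0.51 in MP567 and 12.43 ± 0.14 in MP570, so MP567 lay 3.48-fold below MP570 (log2 difference 1.80 ± 0.10, adjusted p = 5.99e-08). The highest MP567 array, at 11.07, lay below the lowest of the others, at 11.94, while MP525 and MP570 did not differ by the test (0.22 ± 0.10, adjusted p = 0.153). Scg2 was 9.08 ± 0.18, 8.26 ± 0.15 and 9.66 ± 0.34, and all its pairs of tumours differed (adjusted p up to 0.000648). Dcx was 10.15 ± 0.66, 9.48 ± 0.60 and 10.59 ± 0.52, Map2 was 11.06 ± 0.20, 10.56 ± 0.31 and 11.35 ± 0.25, and for both all pairs differed (adjusted p up to 0.00164 for Dcx and 0.00554 for Map2). Ncam1 was 10.92 ± 0.38, 10.25 ± 0.54 and 11.10 ± 0.38, where MP525 and MP570 did not differ by the test (0.18 ± 0.08, adjusted p = 0.127).

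Of the intermediate filament genes, Nefl, Nefm and Ina had another order. Nefl was 8.83 ± 0.16 in MP525, 10.05 ± 0.11 in MP567 and 10.07 ± 0.12 in MP570, so MP525 lay 2.37-fold below MP570 (adjusted p = 2.13e-06), and MP567 and MP570 did not differ by the test (0.02 ± 0.09, adjusted p = 0.897). Nefm was 7.46 ± 0.11, 8.77 ± 0.27 and 8.14 ± 0.32, lowest in MP525 and 2.48-fold higher in MP567 (adjusted p = 5.29e-07), and all its pairs differed (adjusted p up to 0.000224). Ina was 12.25 ± 0.15, 12.99 ± 0.07 and 13.16 ± 0.04, again lowest in MP525, and all pairs differed (adjusted p up to 0.0142). Nefl, Nefm and Ina were thus lowest in MP525, and Snap25, Scg2, Dcx, Map2 and Ncam1 lowest in MP567. Nefh, the heavy neurofilament chain, did not share that order: it was 9.21 ± 0.92 in MP525, 8.70 ± 0.33 in MP567 and 8.95 ± 0.68 in MP570, and was not called by the F-test (adjusted p = 0.0562).

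**Figure D3:**
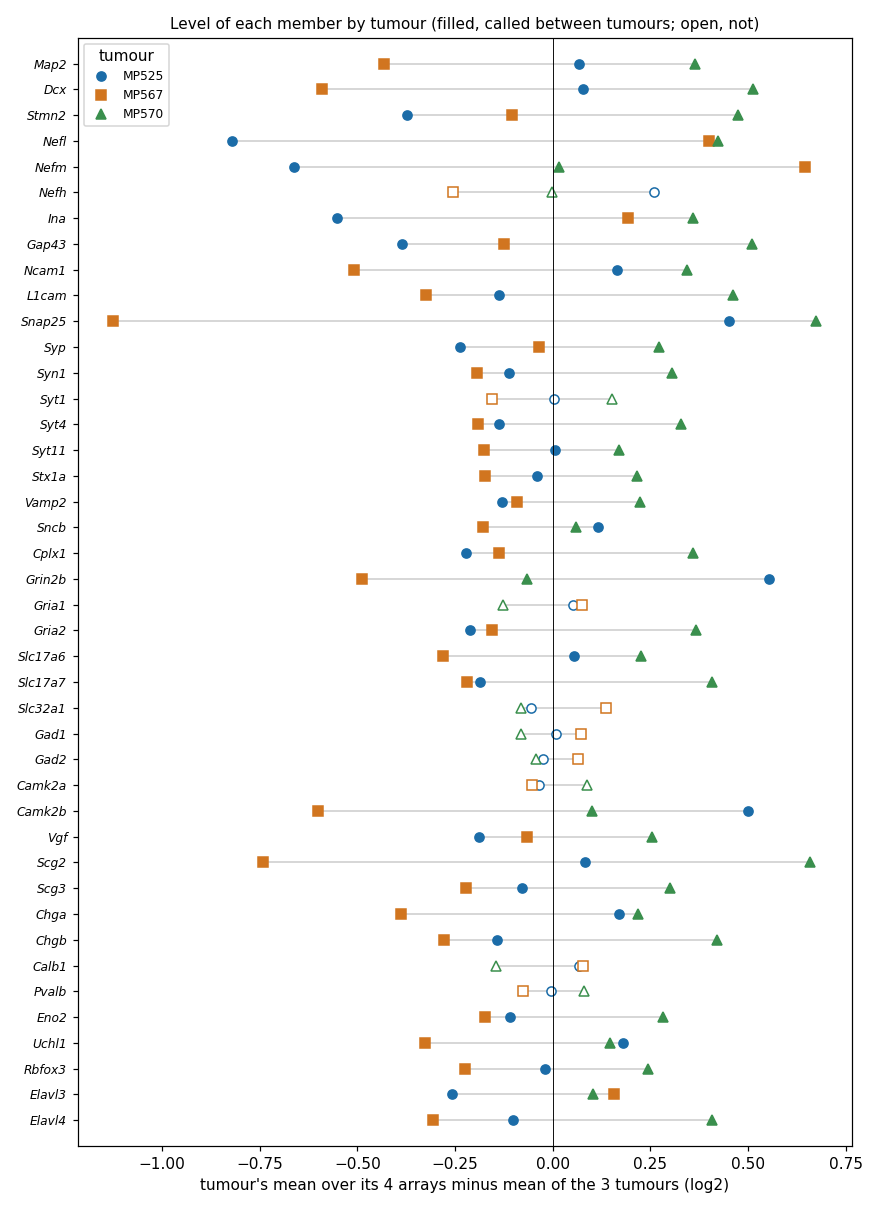
For each of the 42 members tested, the mean of a tumour's 4 arrays is plotted as its log2 distance from the mean of the 3 tumours, with filled markers for the 33 members called between tumours. The green triangles of MP570 lie at the right end for 27 of the 33, Snap25 has the widest gap, and Nefl, Nefm and Ina have MP525 at the left end.

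The drug's effect differed between tumours for 3 of the 42 members, by an F-test of treatment by tumour in limma, where 1.06% of all genes were called: Nefh (adjusted p = 0.0106), Snap25 (0.0177) and Camk2b (0.0471). Averaged over both times, Nefh differed by -1.59 in MP525, -0.56 in MP567 and -1.18 in MP570, lower in all 6 pairs of cultures. At 6 h the differences were -1.72, -0.54 and -1.12, and at 12 h -1.45, -0.57 and -1.23, so the 3 tumours had the same order in the size of the difference as in their solvent level. The solvent level is part of that difference. In LBH589 the Nefh levels lay close together (SD 0.07 at 6 h and 0.11 at 12 h, against 0.52 and 0.51 in DMSO). The shared order thus follows from how the difference is formed and is no separate result. Snap25 differed by 0.47, 0.88 and 0.23, higher in all 6 pairs, and by the most in MP567, where its solvent level was lowest. Here too the solvent level is part of the difference. Camk2b differed by -0.63 in MP525, 0.32 in MP567 and 0.07 in MP570. Its levels were 8.83, 7.10 and 8.06 in DMSO at 6 h and 8.27, 7.67 and 8.02 in LBH589, and 8.80, 7.38 and 8.08 against 8.10, 7.45 and 8.25 at 12 h. The Camk2b levels of the 3 tumours thus spanned 7.10 to 8.83 in DMSO and 7.45 to 8.27 in LBH589.

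These 3 calls rested on few arrays. That of Nefh ended without the DMSO 6 h array of MP525 (0.0573) or the LBH589 6 h (0.0609) or 12 h (0.0574) array of MP567. The call of Snap25 ended without the DMSO 6 h (0.0687), LBH589 6 h (0.066) or LBH589 12 h (0.079) array of MP567, without the LBH589 12 h array of MP570 (0.07), and without a mean-variance trend in the fit (0.126). The call of Camk2b ended without any array of MP525 (0.0687 to 0.204), without any array of MP567 but the DMSO 12 h one (0.0828 to 0.105), without either 12 h array of MP570 (0.0501 and 0.0587), with no filter (0.0634) and without the trend (0.0827). The count of 3 was 0 without the LBH589 6 h or 12 h array of MP567, 1 without the DMSO 6 h array of MP525 or the LBH589 12 h array of MP570, and 5 without the DMSO 6 h array of MP570.

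**Figure D4:**
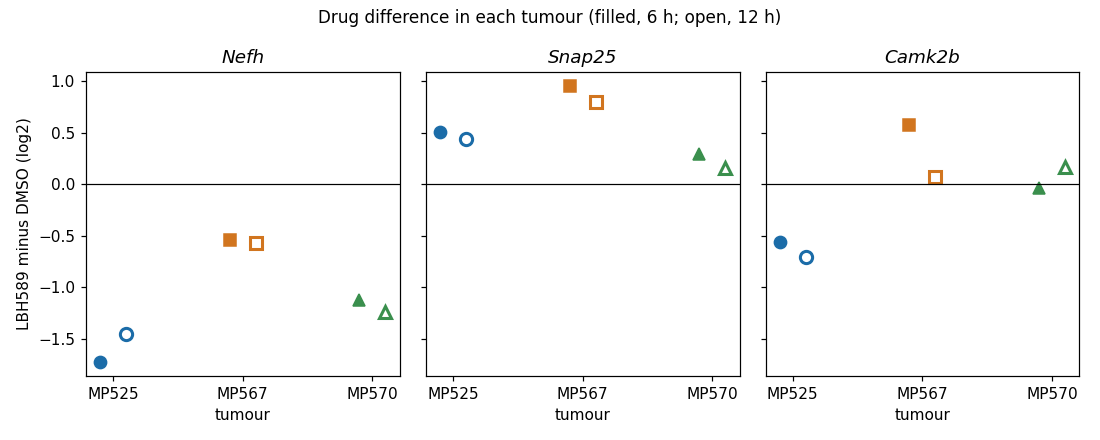
The log2 difference of LBH589 minus DMSO is plotted for Nefh, Snap25 and Camk2b in each tumour, 1 point a time (filled, 6 h; open, 12 h). Nefh lies below 0 in all 3 tumours and lowest in MP525, Snap25 lies above 0 in all and highest in MP567, and Camk2b lies below 0 in MP525 at both times.

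Other neuronal genes, and genes linked to REST, moved in both directions too. On 8 further lists, written like the members' with earlier results of these data known, 183 genes of 202 were tested: 12 rose and 12 fell at 6 h, and 15 rose and 18 fell at 12 h. The last of these lists holds REST and genes linked to its repressor complex, and these counts include it. Over all genes tested, 8.49% rose and 7.31% fell at 6 h, and 9.13% rose and 9.07% fell at 12 h. The counts of the 183 genes lay close to these shares. With the block the counts were 35 and 41, and 38 and 42, to be read beside the larger blocked shares of all genes given above. No list was tested against all genes, so the counts of single lists below do not set a list apart. The largest called genes of each list that moved alike in all tumours are named, and their calls were repeated only with the block. Of 38 further vesicle and active zone genes 4 rose and 1 fell at 6 h, and 3 rose and 3 fell at 12 h (with the block 13 and 5, and 11 and 6). Vamp1, the sister of Vamp2, rose by 1.28 ± 0.16 at 6 h and 1.30 ± 0.16 at 12 h (adjusted p = 0.000426 and 0.000324), and Rab3b, a vesicle GTPase, by 0.76 and 1.19 (0.000875 and 6.23e-05). Rims1, a scaffold of the active zone, fell by 0.94 and 1.01 (0.000466 and 0.000265), and its relative Rims2 differed by -0.77 (0.117, and 0.000138 with the block) and fell by 1.06 at 12 h (0.0322). Of 17 further granule and peptide genes 0 rose and 3 fell at 6 h, with 1 higher at an unadjusted p under 0.05 in limma, and 1 rose and 2 fell at 12 h (with the block 2 and 7, and 2 and 6). Cadps, which primes dense-core vesicles, fell by 0.82 and 1.15 (0.00126 and 0.000169), and the peptide-processing genes Cpe (-0.41 and -0.59, 0.0391 and 0.006) and Pam (-0.69 at 6 h, 0.0115) were lower as well, while the granule protein Resp18 rose by 1.15 at 12 h (0.0184).

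Of 23 further cytoskeleton and growth cone genes 1 rose and 1 fell at 6 h, and 1 rose and 5 fell at 12 h (with the block 4 and 6, and 2 and 9). Nsg1, of neuronal endosomes, fell by 1.16 and 1.11 (0.00534 and 0.0059) and Prph, the intermediate filament peripherin, rose by 1.33 at 12 h (0.00182). Tagln3 and Nsg2 fell by 1.08 and 0.70 at 12 h (0.0352 and 0.0234). Of 31 further receptor subunits 2 rose and 2 fell at 6 h, and 3 rose and 2 fell at 12 h (with the block 3 and 8, and 5 and 7). Glrb, of glycine receptors, fell by 1.32 and 1.03 (0.00612 and 0.0189) and Gabrb1, of GABA receptors, rose by 0.69 and 0.99 (0.0356 and 0.00535). Gabrg1 rose by 1.48 at 12 h (0.0409) and Grm5, a metabotropic glutamate receptor, fell by 0.75 at 6 h (0.0154). Of 17 transmitter enzymes and transporters 1 rose and 1 fell at 6 h, and 2 rose and 1 fell at 12 h (with the block 1 and 3, and 4 and 1). Abat, which breaks down GABA, rose by 1.76 and 1.81 (0.00203 and 0.00145), Slc38a1, a glutamine transporter, fell by 0.99 and 0.88 (0.00789 and 0.0124), and Tph2, which makes serotonin, rose by 0.50 at 12 h (0.0297).

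Of 26 postsynaptic scaffold and adhesion genes 1 rose and 1 fell at each time (with the block 4 and 4 at 6 h, and 6 and 5 at 12 h). Nrxn2, a presynaptic adhesion molecule, fell by 1.47 and 1.60 (0.0482 and 0.0301), and Nfasc, of the axon initial segment, rose by 0.74 and 0.62 (0.0243 and 0.0466). Of 21 further cerebellar neuron genes 2 rose and 1 fell at 6 h, and 4 rose and 1 fell at 12 h (with the block 5 and 5, and 7 and 5). Pcp4, a Purkinje cell gene, rose by 1.90 ± 0.56 at 12 h (0.0359), the transcription factors Lhx5 (0.97 and 0.64, 0.00164 and 0.0133) and Rora (0.60 and 0.46, 0.0107 and 0.0353) were higher, and Neurod1, a granule neuron factor, fell by 0.71 and 0.72 (0.0343 and 0.0273). Genes of 1 cell type on that list did not share a direction: Lhx1, a relative of Lhx5, differed by -0.19 and -0.41 (0.0139 with the block at 12 h), and Cbln1, a granule neuron gene, differed by 0.90 and 0.91 (0.00314 and 0.00274 with the block), both named after their values were seen. Of 10 genes listed for REST and its repressor complex, not all of them parts of the complex, 1 rose and 2 fell at 6 h and 0 rose and 3 fell at 12 h, with 0 higher at an unadjusted p under 0.05 in limma at 12 h (with the block 3 and 3, and 1 and 3). Rcor2, a corepressor of REST, fell by 1.12 ± 0.18 and 1.29 ± 0.18 (0.002 and 0.000733) and Rcor3 by 0.60 and 0.57 (0.0254 and 0.0289). Kdm1a, the demethylase of that complex, fell by 0.42 at 12 h (0.0132), and Sin3a rose by 0.57 at 6 h (0.0227). Rest itself, chosen for mention after its values were seen, differed by 0.31 ± 0.25 and 0.48 ± 0.25, called only with the block (0.0238 and 0.00136).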

How the data were processed

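Total RNA of 12 cultures was labelled with biotin by a GeneChip whole-transcript kit and hybridised to arrays, per the labels. The authors deposited 1 log2 value for each probe set and array; the scale was read from the range, 1.50 to 14.5. The submitters' processing notes name Agilent Feature Extraction 10.7.3.1, a tool for another maker's arrays, and the steps of summary and normalization are "not given in the sources used here". Medians of the arrays lay within 7.10 to 7.21, inside the limit of 0.2 set for using the values as they were. Of 41345 probe sets, 23521 named 1 gene, 1814 several (not used) and 16010 were not listed in the annotation. A gene was tested if above its array's 25th percentile on at least 3 arrays.

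Tests used limma 3.58.1 (lmFit, then eBayes with trend) in R 4.3.3, on 4 group means (8 residual degrees of freedom), with two-sided p-values adjusted by Benjamini-Hochberg over all genes. By the labels every group holds 1 array of each tumour. Deviations from group means correlated at 0.450 to 0.805 for the 18 pairs of arrays of 1 tumour and at -0.51 to -0.0577 for arrays of another tumour and group, so the tumour pairs the arrays, and its fit as a block (6 degrees of freedom) stands beside results it changes. Tumours were tested with the group in the model, and treatment by tumour with 5 degrees of freedom. The comparisons at 6 h and 12 h share no arrays, but those with time share arrays with both. The fit was checked on simulated data. Alternatives were a random block (correlation 0.400), 3 other scalings, no filter, a filter at the 50th percentile, the mean of probe sets, no trend, only the groups compared, and each array or tumour left out. For the drug and for time, all of these but the random block were fitted without a block. Numbers of arrays limit the precision.

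The members, the lists and the rule for naming were chosen with earlier results of these data known. By that rule all 45 members are named, array values are given for members called at both times, for a change with time (block included) or for treatment by tumour, and for the largest of each role, the 8 smallest F-test p-values name the tumour genes, and up to 4 called genes of each other list are named by mean difference. Array values of Vgf, Chgb, Ncam1, Slc17a7, Rbfox3 and Elavl4 were added after they were seen. RefSeq promoter windows gave the sequences, and protein sequences were not analysed here.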

Additional observations from a re-analysis of the deposited data

Results flagged for a closer look

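For 3 members the effect of LBH589 differed between the tumours by the test of treatment by tumour in limma: Nefh (adjusted p = 0.0106), Snap25 (adjusted p = 0.0177) and Camk2b (adjusted p = 0.0471). Averaged over both times, Nefh lay lower with the drug in all tumours, at -1.59 in MP525, -0.56 in MP567 and -1.18 in MP570. Snap25 lay higher in all, at 0.47, 0.88 and 0.23. Camk2b lay lower in MP525 (-0.63) and higher in MP567 (0.32) and MP570 (0.07). Groups of 3 arrays are too small for a test of single arrays that stand apart.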

How the results depend on the processing

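No called difference changed sign under any alternative. The count of members higher at 6 h, 5, was 12 with the tumour as a replicate block, 9 with a random block, and 3 with arrays centred on their medians, after quantile normalization, with no filter on dim genes or with only the groups compared, and it ranged from 1 to 5 without each array or tumour. Members lower at 6 h, 2, became 11 with the block, 6 with a random block and 1 with only the groups compared (0 to 2 without each array or tumour). At 12 h, the 8 higher became 13 with the block (2 to 8 without each array or tumour), and the 4 lower 14 with the block and 10 with a random block (0 to 4 left out in turn). For 12 h against 6 h in LBH589, 0 became 4 with the block. For treatment by tumour, 3 became 1 without the trend, and 0 to 5 without each array. The 33 members called between tumours ranged from 30 to 34 without each array, and were 32 on DMSO arrays alone. All 7 calls at 6 h and all 12 at 12 h were also made with the block. In the fit without the block, 1 of the 7 and 6 of the 12 held without each array, and without each tumour as well 1 of each. The cause of these changes was not tested. Of single members' differences under the alternatives, 1949 kept their side of the threshold, 93 lost a call and 50 gained one.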

Other observations

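Of the members, 5 had more than 1 probe set of their own. For Syt4 the brightest gave -0.87 at 6 h and -0.96 at 12 h (adjusted p = 0.0495 and 0.0267 when all probe sets were tested), and the 2 dimmer ones -0.30 and -0.45 (0.177 and 0.0356), and -0.46 and -0.53 (0.237 and 0.153). For Syp the dimmer probe set differed from the brighter in direction at 6 h, at 0.24 against -0.43, with no call for either (0.322 and 0.257). Those of Grin2b, Slc32a1 and Uchl1 were not called, with adjusted p from 0.398 to 0.987.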
